A study of Mus musculus with 12 samples.

Results

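Translation initiation factors (eIFs) and elongation factors (eEFs) are the soluble proteins that start and extend protein chains on the ribosome. Their genes were described here in gastrocnemius, a calf muscle, of 8-week-old C57BL/6 mice. Every gene whose symbol begins with Eif and a digit from 1 to 6, or with Eef and 1 or 2, was taken from the deposited table of transcript levels, which gave 61 of 10475 listed genes. The rule reads symbols and no measured value. Poly(A) RNA had been sequenced in 12 libraries, 3 in each of 4 groups: transgenic (TG) mice at ZT12, wild-type (WT) mice at ZT12, TG mice at ZT0 and WT mice at ZT0. The transgene gives these mice extra E4BP4, a circadian transcriptional repressor (gene Nfil3), in liver only, so muscle RNA cannot check which mice carried it. ZT counts the hours since the lights came on. ZT0 is lights on, and ZT12 is lights off, when the dark phase of equal length begins. The diet was normal chow, which the labels call randomly fed. The labels do not name the promoter of the transgene, the number of lines or the sex, and they do not say that the libraries of a group came from separate mice, so p-values measure the spread between these libraries.

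Initiation proceeds in stages. eIF2 carries the initiator tRNA to the small ribosomal subunit, helped by eIF1, eIF1A, eIF3 and eIF5, and eIF4F (the cap-binding eIF4E, the scaffold eIF4G and the helicase eIF4A) brings in the mRNA. The eIF4E-binding proteins sequester eIF4E until the kinase mTORC1 phosphorylates them, and kinases of eIF2 lower initiation under stress by blocking its recycling by eIF2B. In elongation eEF1A delivers aminoacyl-tRNA, eEF1B recharges it with GTP, and eEF2 moves the ribosome along until eEF2 kinase phosphorylates and inactivates it. In adult skeletal muscle the eEF1A1 isoform is known to give way to eEF1A2.

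Levels are in TPM, a unit scaled by transcript length and library total, so that genes can be compared. In WT ZT0 replicate 1 no listed gene was under 1 TPM, and a gene silent there is thus missing from the table. The depth is not stated, but TPM times transcript length fell on whole reads for 98.6 to 98.9% of the values judged in a library, within 0.1 read and under 500 reads. The reads recovered this way, over listed genes only, summed to 13.1 to 15.8 M in TG ZT12 and 17.7 to 20.2 M in WT ZT12. They summed to 10.4 to 11.5 M in TG ZT0 and 9.21 to 13.1 M in WT ZT0. Depth in this sense differed with time and, at ZT12, with genotype. All 10 muscle fibre markers were listed, with summed levels of 89769 to 104368 TPM. Of 6 hepatocyte markers 1 was listed, Cyp2e1 at 2.17 to 21.7 TPM, and Alb, Apoa1, Ttr, Serpina1a and Apob were not. WT ZT0 replicate 2 stood apart: 3 of 10 lymphocyte markers were listed (Coro1a, Cd52 and Cd37) and summed to 444 TPM there, against 3.90 to 13.0 TPM in the other 11 libraries. The 7 macrophage markers summed to 299.9 TPM there against 60.2 to 184 TPM elsewhere. Of that sum 203 TPM was Lyz2, and Adgre1 and Mrc1 were not highest in that library. TG ZT12 replicate 1 stood apart the other way: its median gene was at 0.774 of that gene's median in the other libraries. The comparisons are also given without these libraries. In whole muscle, fewer cells of a type and less RNA per cell cannot be told apart.

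Because the compared conditions were a circadian repressor and the time of day, promoter sequences are shown first for the motifs tied to the clock. E-boxes (CACGTG, identical on both strands) are bound by CLOCK and BMAL1, and D-boxes (TTATGTAA or TTACGTAA, searched on both strands) by E4BP4 and its PAR bZIP relatives. RefSeq promoters (GRCm38.p6, 250 bases before to 50 after the gene start) matched 47 of the 61 genes. An E-box stood in 9 of these 47 (19.1%), against 7.24% of 27025 promoters and 10.9% of 7989 promoters of listed genes. A D-box stood in 0 of 47, against 1.06% of all promoters and 0.601% of those of listed genes. The E-box promoters were those of Eef2, Eef2k, Eif1b, Eif3a, Eif3f, Eif3k, Eif4a1, Eif4g1 (2 boxes) and Eif4h. The windows below are those of eEF2 and its own kinase, of the eIF4G scaffold and of 2 eIF3 subunits, with the E-box in capitals and 10 bases on each side. The box begins 31 bases before the start of Eef2k, the first of 3 starts listed for it (chr7:120842790-120842815, plus strand), 43 before Eef2 (chr10:81176578-81176603, plus strand), 54 before Eif4g1 (chr16:20672663-20672688, plus strand), 68 before Eif3f (chr7:108934337-108934362, plus strand) and 44 before Eif3k (chr7:28981917-28981942, minus strand). A match is a string of letters in a window and says nothing of binding.
Eef2k: cggggacggcCACGTGagcccgggcg
Eef2: ccggcgccgtCACGTGacgcacccaa
Eif4g1: cagtgggtgtCACGTGatggggcgga
Eif3f: agatatgattCACGTGgtataaattt
Eif3k: ggaaggaaatCACGTGgtagacaaaa

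The factor genes ranged from a median of 784 TPM for Eef1a2 to 1.28 TPM for Eif2ak3. Their levels together took 0.728 to 1.10% of the listed TPM of a library, and the 5 highest members made up 44.8 to 51.5% of that. The listed TPM itself summed to 429014 to 450432 TPM, so these shares are of the listed genes and not of the whole library. Medians over the 12 libraries exceeded 100 TPM for 6 members and lay under 10 TPM for 12. In 60 of 61 members every library was at 1 TPM or more, the exception being Eif2ak3. The ratio of the highest to the lowest library had a median of 1.52 over the members, was under 1.5 in 30 of them and over 2 in 13. With the 2 libraries that stood apart left out that median was 1.31, and 52 members were under 1.5. Neighbours in the order of levels overlapped in range everywhere except below Eef2 and below Eif5a: Eef1a2 and Eef2 overlapped each other and led, Eif5a came next, clear of both sides, and from Eif1 downwards each member overlapped the next.

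**Figure D1:**
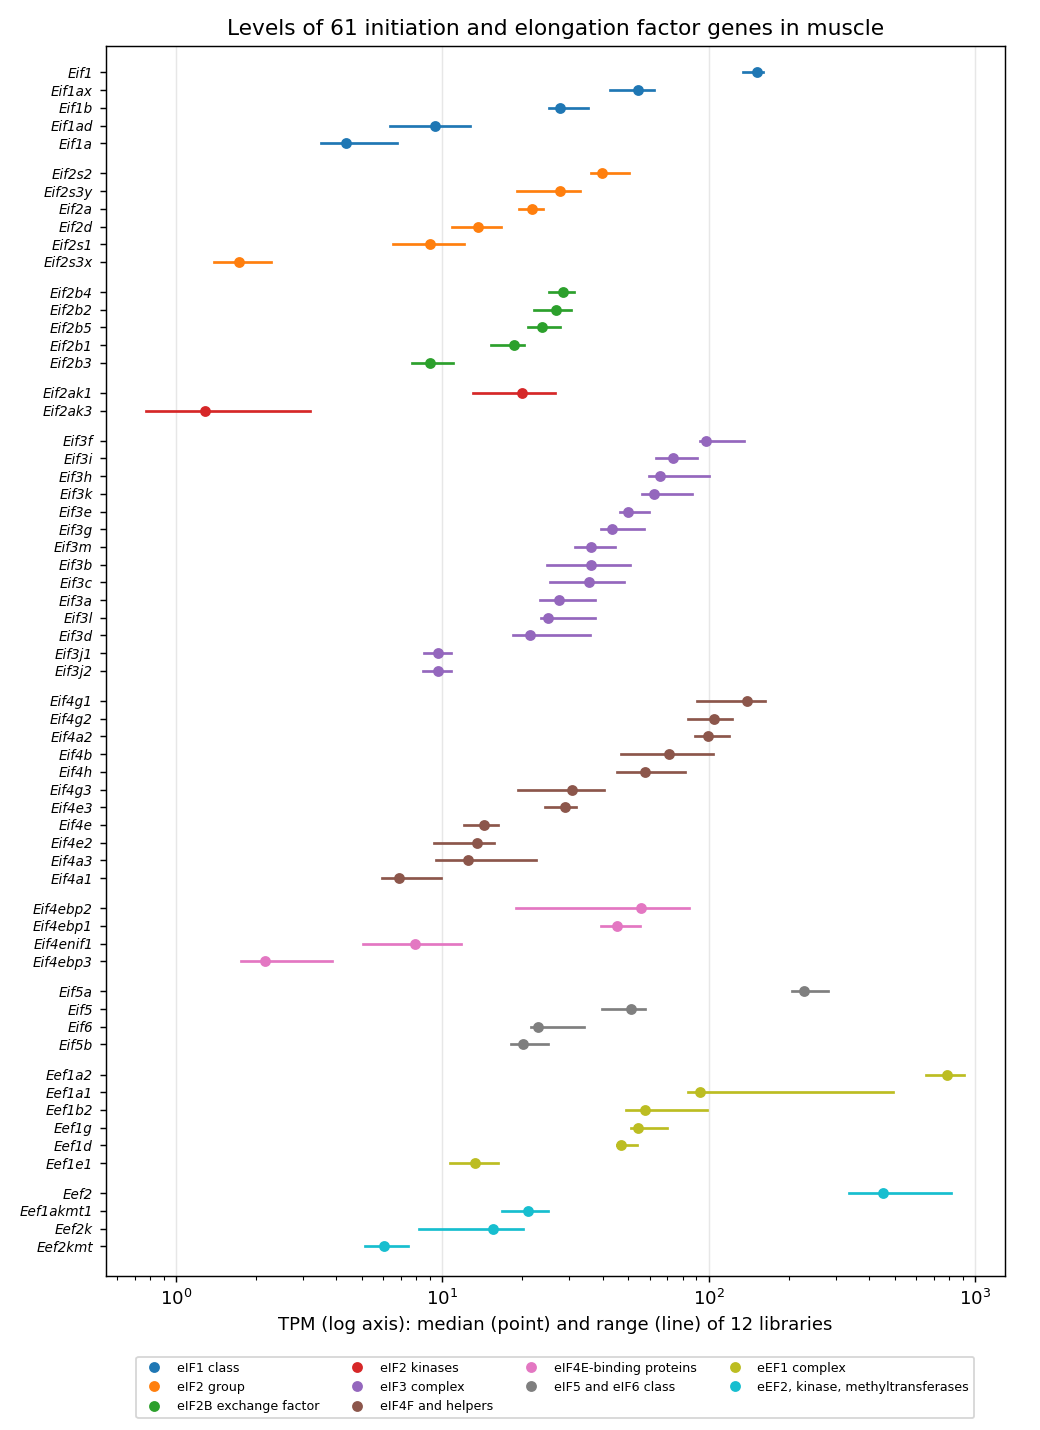
Level of each of the 61 genes in TPM on a log axis, grouped and coloured by factor class, with the median of 12 libraries as a point and the range as a line. Eef1a2 and Eef2 lie highest, Eif2ak3 lowest, and the longest lines are those of Eef1a1, Eif4ebp2 and Eif2ak3.

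Among the eIF4F genes the TPM of the helicase came mostly from 1 isoform. Eif4a2 and Eif4a1 encode near-twin RNA helicases, and Eif4a2 had the higher TPM. Eif4a2 had 95.4, 120 and 96.0 TPM in TG ZT12, 104, 114 and 109 TPM in WT ZT12, 94.9, 97.3 and 89.1 TPM in TG ZT0, and 98.6, 108 and 99.6 TPM in WT ZT0. Eif4a1 had 7.28, 6.43 and 6.03 TPM in TG ZT12, 6.92, 8.22 and 6.80 TPM in WT ZT12, 7.08, 6.09 and 6.14 TPM in TG ZT0, and 6.99, 9.87 and 5.96 TPM in WT ZT0. The ratio of Eif4a2 to Eif4a1 ran from 10.98 to 18.6 with a median of 14.8, so the order of the pair was the same in every library. How reads were divided between genes so alike was not checked.

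The scaffolds stood well above the cap-binding protein. Eif4g1, the main scaffold, had 90.7, 163 and 141 TPM in TG ZT12, 136, 139 and 125 TPM in WT ZT12, 147, 145 and 112 TPM in TG ZT0, and 142, 163 and 135 TPM in WT ZT0. The lowest libraries were TG ZT12 replicate 1 and TG ZT0 replicate 3, and the other TG libraries lay among the WT values. Eif4g2, which encodes a scaffold without the eIF4E-binding region, had a median of 105 TPM, and Eif4g3 one of 30.6 TPM.

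Eif4e, the cap-binding subunit, had 12.0, 16.2 and 12.5 TPM in TG ZT12, 12.3, 14.9 and 13.9 TPM in WT ZT12, 15.8, 14.8 and 14.2 TPM in TG ZT0, and 14.01, 14.4 and 15.02 TPM in WT ZT0. All 4 groups overlapped. Its relative Eif4e3 was higher in every library, with a ratio to Eif4e of 1.69 to 2.49. Eif4b, a cofactor of the helicase, had 46.8, 80.9 and 78.3 TPM in TG ZT12, 81.2, 65.5 and 65.1 TPM in WT ZT12, 69.9, 76.4 and 62.9 TPM in TG ZT0, and 60.3, 104 and 72.4 TPM in WT ZT0. The lowest and the highest Eif4b value were those of TG ZT12 replicate 1 and WT ZT0 replicate 2.

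The main repressors of eIF4E stood above it in TPM in every library. Eif4ebp1 had 45.6, 39.4 and 49.4 TPM in TG ZT12, 44.2, 43.4 and 39.8 TPM in WT ZT12, 43.0, 55.2 and 45.3 TPM in TG ZT0, and 50.2, 54.5 and 50.8 TPM in WT ZT0. In WT every ZT12 library was below every ZT0 library, while the TG times overlapped. The ratio of Eif4ebp1 to Eif4e had a median of 3.48 and a range of 2.43 to 3.94.

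Eif4ebp2, whose product does the same, was the most variable gene of the class. It had 18.9, 70.0 and 58.9 TPM in TG ZT12, 65.5, 48.0 and 43.7 TPM in WT ZT12, 68.1, 62.2 and 28.0 TPM in TG ZT0, and 52.4, 84.7 and 52.7 TPM in WT ZT0. TG ZT12 replicate 1 was at 0.32 and TG ZT0 replicate 3 at 0.47 of the median of the other libraries, and the remaining TG libraries lay inside the WT range. The ratio of Eif4ebp2 to Eif4ebp1 therefore ran from 0.414 to 1.78. Eif4ebp3, the third binding protein, was scarce: it had 1.87, 1.75 and 2.01 TPM in TG ZT12, 2.22, 2.46 and 2.12 TPM in WT ZT12, 2.94, 1.86 and 3.45 TPM in TG ZT0, and 2.34, 3.84 and 2.09 TPM in WT ZT0, which is 26 to 62 recovered reads a library.

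The subunits of eIF2 differed in level. Eif2s1 encodes the subunit that stress kinases phosphorylate. It had 6.52, 9.91 and 8.66 TPM in TG ZT12, 8.97, 9.97 and 10.3 TPM in WT ZT12, 9.54, 9.02 and 7.25 TPM in TG ZT0, and 7.69, 12.0 and 8.77 TPM in WT ZT0, with every pair of groups overlapping. Eif2s2 was higher, with a median of 39.8 TPM, and was above Eif2s1 in every library.

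The third subunit is encoded on X and Y, and the Y copy gave most of the reads in all 12 libraries. Eif2s3y had 32.8, 31.8 and 24.4 TPM in TG ZT12, 28.1, 31.0 and 27.1 TPM in WT ZT12, 27.0, 26.4 and 19.1 TPM in TG ZT0, and 29.3, 27.2 and 28.3 TPM in WT ZT0. At ZT0 the TG libraries were all below the WT libraries, by the least margin of 27.0 against 27.2 TPM. Eif2s3x had a median of 1.73 TPM, and the ratio of the Y to the X copy ran from 10.7 to 19.0. The copies are near-identical in their coding part, so how reads were divided between them is uncertain.

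Of the eIF2 kinases, the haem sensor was well above the sensor of the endoplasmic reticulum. Eif2ak1 (HRI, the haem-regulated kinase) had 13.1, 21.8 and 19.8 TPM in TG ZT12, 20.2, 19.7 and 17.3 TPM in WT ZT12, 21.8, 20.6 and 17.1 TPM in TG ZT0, and 19.0, 26.4 and 20.8 TPM in WT ZT0. Eif2ak3 (PERK, the kinase of that reticulum's stress response) had 1.21, 1.65 and 1.15 TPM in TG ZT12, 1.69, 1.56 and 1.26 TPM in WT ZT12, 1.27, 1.31 and 0.775 TPM in TG ZT0, and 1.30, 3.19 and 0.863 TPM in WT ZT0. Its highest value was that of WT ZT0 replicate 2, at 2.52 times the median of the others. Eif2ak2 and Eif2ak4, the other kinases, were not among the genes of the TPM table and were not analysed here.

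Of eIF2B, the exchange factor of eIF2, Eif2b3 was lowest with a median of 9.02 TPM and Eif2b4 highest with 28.4 TPM. Eif2b5, the catalytic subunit, had 20.9, 27.7 and 22.8 TPM in TG ZT12, 23.9, 24.9 and 23.6 TPM in WT ZT12, 23.8, 24.4 and 23.7 TPM in TG ZT0, and 23.2, 26.4 and 21.7 TPM in WT ZT0. All 5 subunits kept their highest library within 1.23 to 1.43 times their lowest.

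The 14 eIF3 genes centred on 36.1 TPM. The complex is a scaffold on the small ribosomal subunit, built on a core of subunits that includes Eif3a, Eif3b and Eif3c. Eif3f stood at 2.70 times the median of the complex with 97.5 TPM, Eif3i at 2.03 times, Eif3b, Eif3c and Eif3m at 0.99 to 1.00 times, Eif3a at 0.76 times and Eif3d at 0.59 times. Eif3j1 and Eif3j2, at 9.66 and 9.62 TPM, were lowest at 0.27 times. The deposited coordinates of these 2 overlap almost entirely on chromosome 2, whereas GENCODE M21 puts Eif3j2 on another chromosome. Their recovered reads ran from 231 to 582 and from 230 to 581, and the authors' log2 fold changes for them were identical at each time. The 2 entries are therefore near duplicates of 1 locus, though they count as 2 of the 61 members.

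Eif3a had 23.8, 34.6 and 33.3 TPM in TG ZT12, 24.0, 27.2 and 24.9 TPM in WT ZT12, 27.8, 27.5 and 23.8 TPM in TG ZT0, and 27.7, 37.6 and 23.2 TPM in WT ZT0. TG ZT12 replicates 2 and 3 were above the WT ZT12 libraries, and replicate 1 was below them. Summed over the 14 genes, with Eif3j1 and Eif3j2 both counted, the complex had 569.5 to 789 TPM. WT ZT0 replicate 2 held the highest of these sums, and the other 11 libraries reached at most 613 TPM.

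Among the eIF1, eIF5 and eIF6 genes Eif5a was highest, next in level after Eef1a2 and Eef2. Eif5a, whose product carries hypusine and helps the ribosome past difficult peptide bonds, had 206, 222 and 227 TPM in TG ZT12, 240.3, 226 and 221 TPM in WT ZT12, 234, 224 and 229 TPM in TG ZT0, and 242, 281 and 228 TPM in WT ZT0. Eif1, which guards start-codon choice, was nearly constant at 135 to 159.8 TPM. Eif6, which keeps the large ribosomal subunit from joining too early, had 24.2, 23.1 and 22.7 TPM in TG ZT12, 22.9, 24.6 and 22.7 TPM in WT ZT12, 21.6, 22.6 and 22.2 TPM in TG ZT0, and 24.7, 33.9 and 22.7 TPM in WT ZT0. Every TG ZT0 library of Eif6 lay below every WT ZT0 library and below every TG ZT12 library, though its highest value, 22.6 TPM, was next to the lowest of both groups, 22.7 TPM.

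For elongation the muscle isoform of eEF1A dominated (Eef1a2, mm10 chromosome 2, 181147692 to 181157015; Eef1a1, chromosome 9, 78478454 to 78481724; both on the minus strand). Eef1a2 had 654, 886 and 909 TPM in TG ZT12, 828, 789 and 753 TPM in WT ZT12, 783, 755 and 739.9 TPM in TG ZT0, and 779, 833 and 784 TPM in WT ZT0. It ranked 44th among all listed genes. Eef1a1, the general isoform, had 83.6, 94.7 and 89.9 TPM in TG ZT12, 98.7, 99.5 and 110.3 TPM in WT ZT12, 85.5, 106 and 86.1 TPM in TG ZT0, and 91.5, 491 and 91.4 TPM in WT ZT0.

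WT ZT0 replicate 2 alone broke the isoform ratio. There Eef1a2 was 1.70 times Eef1a1, against 6.83 to 10.1 times in the other 11 libraries, and Eef1a1 was 5.36 times the median of the others while Eef1a2 was at 833 TPM, inside the range of the others. The sums of the lymphocyte and of the macrophage markers were highest in the same library, as given above. Their part in the Eef1a1 value was not tested. Eef1a1 has processed copies in the genome that share its sequence, so its reads could be split between loci.

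The subunits of the exchange factor eEF1B stood close together. Eef1b2 had 79.2, 49.4 and 48.8 TPM in TG ZT12, 60.98, 54.9 and 64.7 TPM in WT ZT12, 54.5, 56.6 and 56.3 TPM in TG ZT0, and 58.6, 98.8 and 65.9 TPM in WT ZT0. Its TG ZT0 libraries lay below its WT ZT0 libraries, and TG ZT12 replicate 1 stood above the rest of its own group. The exons of Eef1b2 overlap those of Ndufs1 on the other strand by 9 bases. The library kit is not described as strand-specific, so some reads may belong to either. Exons of 26 members overlap another gene, 14 of them a protein-coding one. Longer overlaps include those of Eif2ak1 (Aimp2, 487 bases), Eif4ebp3 (AC115631.1, same strand, 327 bases), Eef1d (Naprt, 277 bases) and Eif4a2 (Rfc4, 186 bases). The same limit holds for these genes.

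Eef1g, the scaffold subunit, had 53.7, 55.1 and 51.6 TPM in TG ZT12, 55.9, 55.7 and 56.1 TPM in WT ZT12, 55.5, 51.6 and 53.7 TPM in TG ZT0, and 52.8, 69.5 and 51.1 TPM in WT ZT0. Eef1d, a second exchange subunit, had 51.6, 47.1 and 46.2 TPM in TG ZT12, 46.5, 46.3 and 47.3 TPM in WT ZT12, 45.3, 49.3 and 53.2 TPM in TG ZT0, and 45.2, 53.8 and 46.8 TPM in WT ZT0. Both stayed within 1.36 times from the lowest to the highest library.

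Eef2, the translocase (chromosome 10, 81176631 to 81182509, plus strand), had 336, 559.7 and 532 TPM in TG ZT12, 558, 408 and 437 TPM in WT ZT12, 449, 479.7 and 446 TPM in TG ZT0, and 394, 811 and 452 TPM in WT ZT0. The extremes were again TG ZT12 replicate 1 and WT ZT0 replicate 2. Eef2k, the kinase that switches eEF2 off (chromosome 7, 120842831 to 120907219, plus strand), had 8.21, 15.99 and 14.97 TPM in TG ZT12, 13.3, 12.5 and 12.7 TPM in WT ZT12, 20.2, 17.8 and 13.6 TPM in TG ZT0, and 16.8, 19.4 and 16.5 TPM in WT ZT0. In WT the ZT12 libraries of Eef2k were all below the ZT0 libraries, and in TG the ranges overlapped through TG ZT0 replicate 3. The ratio of the translocase to its kinase was 32.7 to 41.9 at ZT12 and 22.3 to 41.8 at ZT0 over both genotypes.

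**Figure D2:**
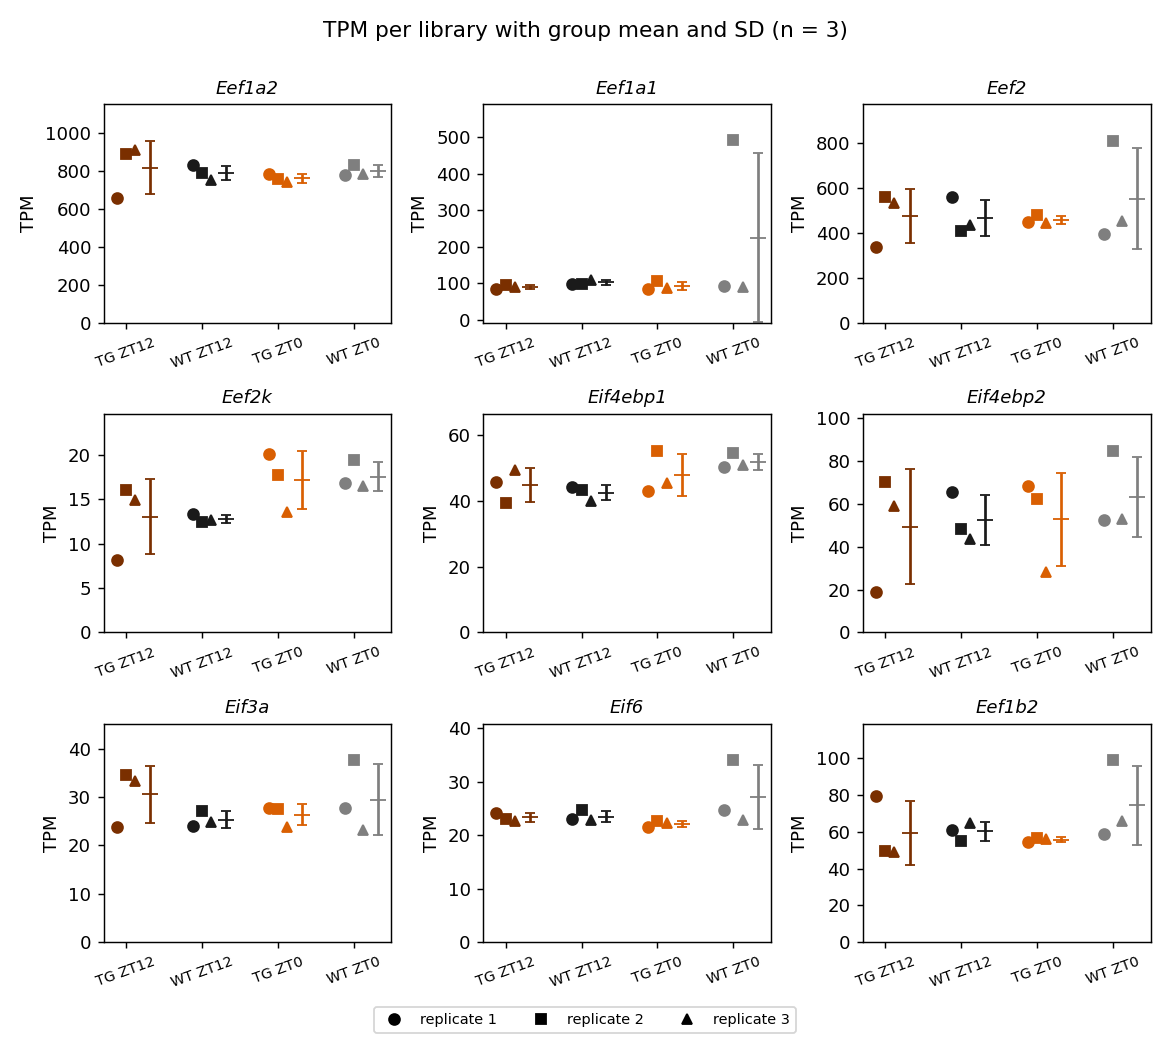
TPM of 9 factor genes in every library, by group, with replicates as symbols and the group mean ± SD (n = 3) as a bar beside them. WT ZT0 replicate 2 is highest for Eef1a1 (491 TPM), Eef2 and Eef1b2, TG ZT12 replicate 1 is lowest for Eef2k and Eif4ebp2, and in WT Eef2k and Eif4ebp1 are lower at ZT12 than at ZT0.

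The first comparison was TG against WT muscle, which asks whether a transgene in the liver alters the factor genes in muscle. No member was called at either time or over both. The test was limma on log2(TPM + 1), a scale on which a fold change of low genes is understated, with Benjamini-Hochberg adjustment over 10415 genes and a call at an adjusted p under 0.05. All 61 members passed the filter of 1 TPM in 3 libraries. Of all genes tested, 0.0% were called at ZT0, 0.0% at ZT12 and 0.0% over both times, so 0 of 61 members stood beside 0 of 10415 genes in each. At an unadjusted p under 0.05 there were 0 members in any of the 3 comparisons and 117, 99 and 166 genes in all, at ZT0, at ZT12 and over both times. With limma-voom on the recovered reads 0 members were called, beside 0 genes in all in each comparison. An unadjusted p under 0.05 was then found for 0, 1 and 0 members, against 125, 191 and 216 genes in all. With the 2 libraries that stood apart left out, 0 members were again called, beside 0.0%, 0.0192% and 0.0% of all genes, and 0, 5 and 4 had an unadjusted p under 0.05, against 207, 772 and 571 genes in all.

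At ZT0 the members with the smallest p were Eif6, Eif3g and Eef1b2, all lower in TG. Eif6 averaged 22.1 ± 0.541 TPM in TG and 27.1 ± 5.97 TPM in WT, a log2 fold change of -0.26 (SE 0.13, limma adjusted p = 0.998). Eif3g, an RNA-binding eIF3 subunit, averaged 43.2 ± 1.46 TPM in TG and 50.1 ± 6.16 TPM in WT, a log2 fold change of -0.20 (SE 0.11, adjusted p = 0.998). Eef1b2 averaged 55.8 ± 1.16 TPM in TG and 74.4 ± 21.4 TPM in WT, a log2 fold change of -0.37 (SE 0.20, adjusted p = 0.998; SD, n = 3 for all). Without WT ZT0 replicate 2 these log2 fold changes were -0.10, -0.11 and -0.15, each closer to 0 than with it.

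Counted by overlap, 9 of 61 members (14.8%) had all 3 TG libraries below all 3 WT libraries at ZT0, against a background of 3.22% of genes. They were Eef1b2, Eif1a, Eif2s3y, Eif3g, Eif3i, Eif3k, Eif4a2, Eif4a3 and Eif6. In the other direction there was 1, Eif2b3, against a background of 1.4%. After median-of-ratios scaling, which divides each library by its typical gene, 1 member was lower (Eif1a, background 2.96%) and 1 higher (Eif2b3, background 2.88%). With WT ZT0 replicate 2 left out, 10 members were lower (16.4%, background 4.56%) and 2 higher (3.28%, background 7.97%). The count of lower members thus fell with scaling, but not when WT ZT0 replicate 2 was left out. Dividing by the typical gene also centres the median log2 fold change of all genes by design. At ZT0 it was -0.10 as deposited and -0.002 after scaling.

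At ZT12 the TG libraries were all less deep than the WT libraries, and genotype and depth cannot be told apart. The smallest p-values belonged to Eif3a, Eef1e1 and Eif2s1, which differed in direction. Eif3a averaged 30.6 ± 5.89 TPM in TG and 25.4 ± 1.66 TPM in WT (SD, n = 3), a log2 fold change of 0.24 (SE 0.18, limma adjusted p = 1.00). Without the 2 libraries that stood apart it was 0.41 (SE 0.11, limma adjusted p = 0.455). Eef1e1 (AIMP3, a protein of the aminoacyl-tRNA synthetase complex) had a log2 fold change of -0.18 (SE 0.15), with 14.9, 13.3 and 10.7 TPM in TG against 12.3, 16.2 and 15.8 TPM in WT, and Eif2s1 one of -0.21 (SE 0.18), both with an adjusted p of 1.00 in limma. Leaving out the libraries that stood apart, these were -0.28 for Eef1e1 and -0.06 for Eif2s1. By overlap 3 members were lower in TG, Eef1a1, Eef1g and Eif4ebp3 (background 4.26%), and 0 were higher (background 0.528%). After scaling 0 were lower (background 3.0%) and 1 was higher, Eif3a (background 2.73%). Without the 2 libraries that stood apart 8 were lower (13.1%, background 9.91%) and 9 higher (14.8%, background 16.1%).

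Over both times the smallest p-values were those of Eif4a3, Eif2d and Eif3f. Eif4a3 encodes a helicase of the exon junction complex. It had 9.48, 14.1 and 11.1 TPM in TG ZT12, 12.3, 13.3 and 12.5 TPM in WT ZT12, 11.1, 12.4 and 12.0 TPM in TG ZT0, and 12.8, 22.5 and 12.5 TPM in WT ZT0. The log2 fold change was -0.25 (SE 0.14, 95% interval -0.55 to 0.05, limma adjusted p = 0.929). Eif2d, a factor for non-canonical initiation, had 10.9, 13.2 and 13.5 TPM in TG ZT12, 13.8, 14.4 and 12.5 TPM in WT ZT12, 12.9, 14.4 and 12.4 TPM in TG ZT0, and 15.1, 16.7 and 13.9 TPM in WT ZT0, with a log2 fold change of -0.15 (SE 0.08). The ranges of TG and WT overlapped for both. Eif3f, an eIF3 subunit, had 97.2, 97.7 and 92.5 TPM in TG ZT12, 109.8, 94.8 and 102 TPM in WT ZT12, 94.2, 99.7 and 93.2 TPM in TG ZT0, and 99.4, 136 and 96.4 TPM in WT ZT0, with a log2 fold change of -0.14 (SE 0.08), and it too overlapped. Without WT ZT0 replicate 2 the log2 fold changes were -0.12 for Eif4a3, -0.12 for Eif2d and -0.07 for Eif3f, and without both libraries that stood apart they were -0.06, -0.07 and -0.07. Over both times 0 members had all TG libraries above or below all WT libraries (background 0.0% higher and 0.0384% lower).

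The intervals set limits on the size of these differences. The 95% interval of the TG over WT log2 fold change lay within 1.5-fold in either direction for 49 of 61 members at ZT0, for 53 at ZT12 and for 58 over both times. The median standard error of a member was 0.15 at a single time, against 0.19 for all genes tested. The spread left within groups was likewise smaller, with a median residual SD of 0.16 log2 units over the members and 0.24 over all genes. Genes of like level were not set beside the members, so the part of level in both differences was not tested. The median log2 fold change of the members was -0.12 at ZT0, -0.06 at ZT12 and -0.08 over both times, beside -0.10, -0.07 and -0.09 over all genes. After median-of-ratios scaling, which centres the median of all genes near 0 by design, the members' medians were -0.01, 0.03 and 0.02. Without the 2 libraries that stood apart they were 0.01, 0.003 and 0.003. The direction below 0 was thus not kept, apart from ZT0 after scaling. At ZT0 49 of 61 members (80.3%) were below 0 as deposited, beside 76.5% of all genes. That count was 33 of 61 after scaling and 27 of 61 without the 2 libraries.

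**Figure D3:**
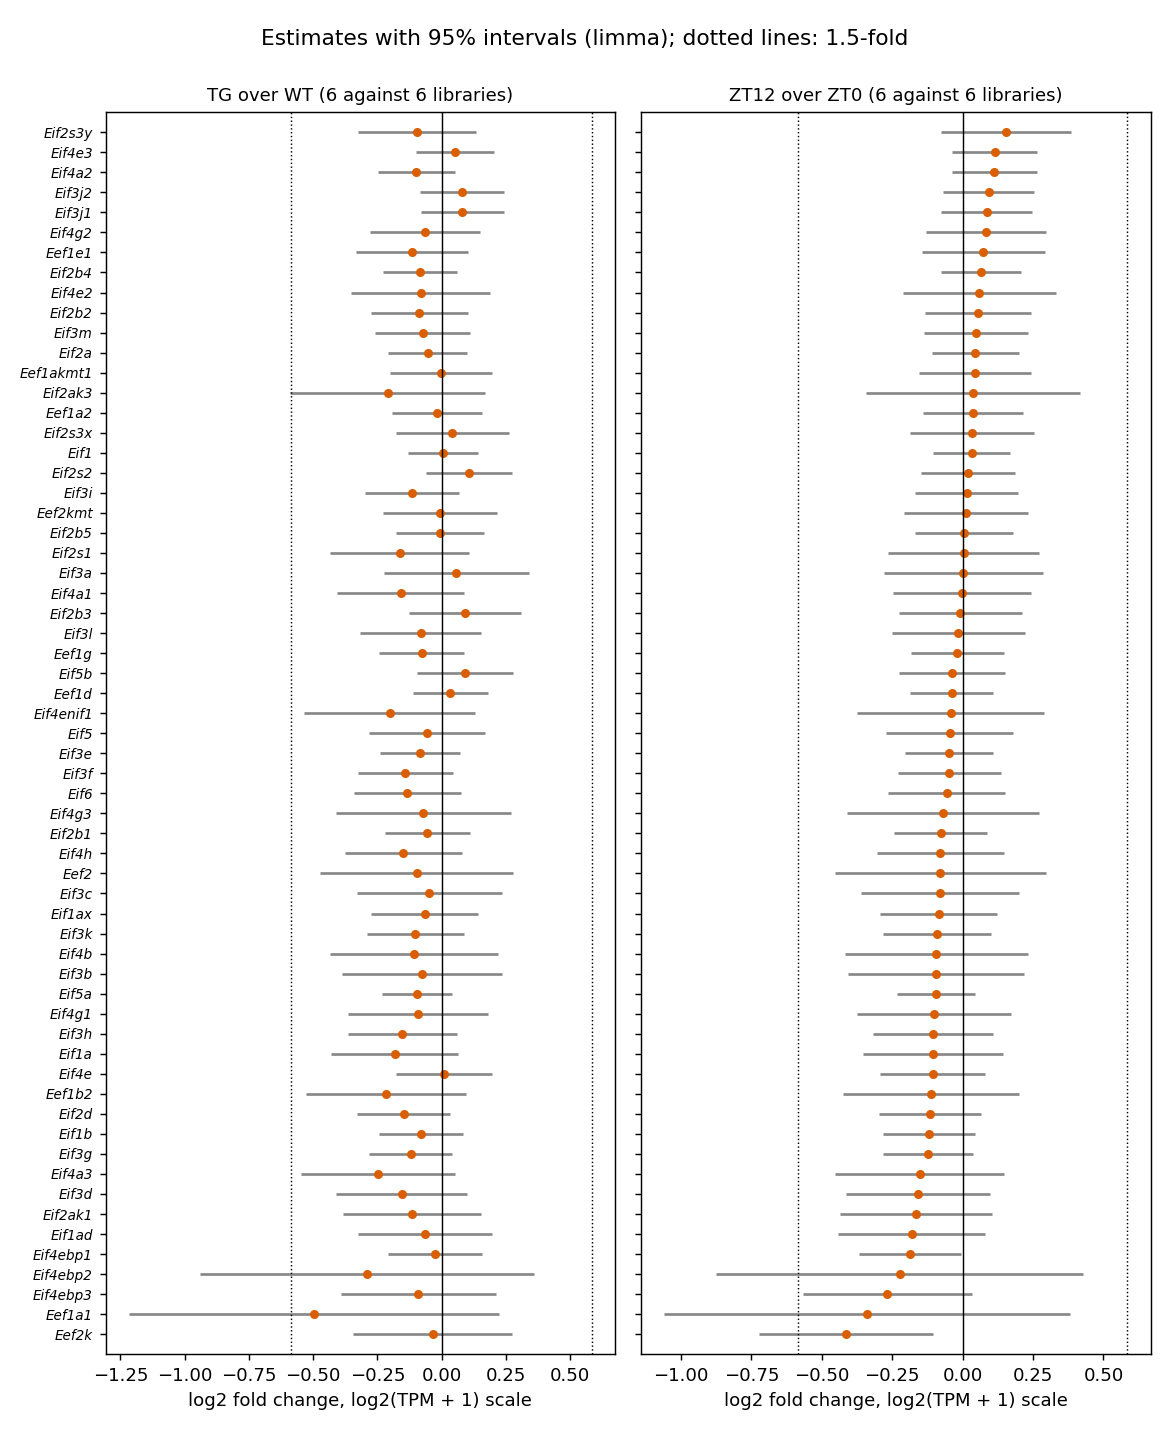
Log2 fold change of each gene with its 95% interval from limma, TG over WT on the left and ZT12 over ZT0 on the right, 6 against 6 libraries in each, ordered by the time estimate. Dotted lines mark 1.5-fold; 58 of 61 intervals lie between them in each panel, and only those of Eef2k and Eif4ebp1 exclude 0, both for time.

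The second comparison was ZT12 against ZT0, the end against the start of the light phase. No member was called in WT, in TG or over both genotypes, while 0.115%, 0.154% and 1.02% of all genes were called. The calls over all genes numbered 12 in WT, 16 in TG and 106 over both genotypes. At an unadjusted p under 0.05 limma gave 1, 0 and 2 members against 484, 368 and 765 genes. Limma-voom gave 1, 1 and 1 members against 762, 515 and 1109 genes, and called 0 members against 56, 28 and 217 genes. With the 2 libraries that stood apart left out, 0 members were called, beside 0.693%, 0.683% and 4.46% of all genes. There 1, 2 and 5 members had an unadjusted p under 0.05, against 1129, 1537 and 2319 genes in all. After median-of-ratios scaling 0 members were called, beside 0.528%, 0.298% and 2.25% of all genes. Depth was higher at ZT12 in most libraries, and the ranges of the times met at 13.1 M reads. The 5 erythroid markers, all listed, summed to 145 to 4565 TPM at ZT12, against 86.2 to 163 TPM at ZT0. The part of either in these values was not tested.

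With all 12 libraries Eef2k was the member closest to a call. Over both genotypes it averaged less at ZT12, with a log2 fold change of -0.41 (SE 0.14, 95% interval -0.72 to -0.10, limma adjusted p = 0.347), and the estimate was -0.42 in WT and -0.41 in TG (-0.35 and -0.13 without the 2 libraries that stood apart). Group means were 13.1 ± 4.23 TPM in TG ZT12, 12.8 ± 0.439 TPM in WT ZT12, 17.2 ± 3.31 TPM in TG ZT0 and 17.6 ± 1.61 TPM in WT ZT0 (SD, n = 3). The adjusted p was 0.0584 after median-of-ratios scaling and 0.0536 with limma-voom, and over all alternatives it ran from 0.0536 to 0.670. Without TG ZT12 replicate 1 the log2 fold change was -0.29. With both libraries that stood apart left out it was -0.24 (95% interval -0.45 to -0.03, limma adjusted p = 0.182). The smallest limma adjusted p of a member was then 0.148, so Eef2k was not the closest in that setting. An antisense gene overlaps its exons, and reads from either strand could be counted.

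Eif4ebp1 and Eif4ebp3 followed. In WT Eif4ebp1 averaged 42.5 ± 2.36 TPM at ZT12 and 51.8 ± 2.36 TPM at ZT0 (SD, n = 3), a log2 fold change of -0.28 (SE 0.12, limma adjusted p = 0.972), which was -0.25 without WT ZT0 replicate 2. In TG it was -0.09 (SE 0.12), and 0.01 without TG ZT0 replicate 2, and the difference between these estimates, 0.19 (SE 0.17, limma adjusted p = 1.00), did not pass the test. Over both genotypes Eif4ebp1 had a log2 fold change of -0.19 (SE 0.08, limma adjusted p = 0.658) and Eif4ebp3 one of -0.27 (SE 0.14, adjusted p = 0.799), which was -0.17 without the 2 libraries that stood apart. In TG the smallest p-values were those of Eif2s3y (0.29, SE 0.15), Eef2k and Eif4ebp3 (-0.36, SE 0.20), each with a limma adjusted p of 1.00. In WT the third was Eif3g, with 39.4, 44.0 and 46.3 TPM at ZT12 against 47.8, 57.1 and 45.5 TPM at ZT0, a log2 fold change of -0.20 (SE 0.11), or -0.11 without WT ZT0 replicate 2.

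By overlap, 2 of 61 members were lower at ZT12 in WT, Eef2k and Eif4ebp1 (background 5.2%), and 0 were higher (background 5.62%). In TG 1 was higher, Eif6 (background 3.21%), and 1 lower, Eif1b (background 3.87%). As deposited, none of these shares exceeded the background. After scaling there were 5 lower (background 7.44%) and 1 higher (background 7.54%) in WT, and 2 lower (background 5.51%) and 1 higher (background 5.28%) in TG. Without the 2 libraries that stood apart 3 were lower (background 6.26%) and 9 higher (background 26.7%) in WT, and 6 were lower (background 7.37%) and 11 higher (background 23.0%) in TG. Over both genotypes 0 were higher (background 0.538%) and 0 lower (background 0.989%). Eef2k was among the lower members in WT under every setting run: as deposited, scaled, and without the 2 libraries that stood apart.

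The 95% intervals of the time estimates lay within 1.5-fold for 46 of 61 members in WT, 55 in TG and 58 over both genotypes. The estimate furthest from 0 was that of Eef1a1 in WT, -0.64 (SE 0.48, 95% interval -1.67 to 0.40, limma adjusted p = 1.00), and it was 0.17 without WT ZT0 replicate 2. Median log2 fold changes of the members were -0.09 in WT, -0.01 in TG and -0.05 over both, beside -0.05, -0.01 and -0.03 over all genes. Leaving out the 2 libraries that stood apart gave members' medians of 0.02, 0.05 and 0.05, beside 0.08, 0.10 and 0.09 over all genes, so their sign changed. The 9 genes with an E-box had log2 fold changes over time from -0.41 (Eef2k) to 0.003 (Eif3a) with a median of -0.08, and the 38 matched genes without it ran from -0.34 to 0.15 with a median of -0.04. These are descriptions of overlapping ranges, with no test.

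Whether TG and WT differed in their change with time was asked by the interaction. No member was called, with 0.0% of all genes called. At an unadjusted p under 0.05 there were 0 members and 69 genes, and limma-voom called 0 members and 0 genes in all. The smallest p-values were those of Eif3a (0.37, SE 0.25), Eif3m (0.24, SE 0.17) and Eif6 (0.26, SE 0.19), each with a limma adjusted p of 1.00. Without WT ZT0 replicate 2 these estimates were 0.19, 0.14 and 0.09, and without both libraries that stood apart 0.35, 0.12 and 0.06. Eif3m, an eIF3 subunit, had 39.0, 41.5 and 33.8 TPM in TG ZT12, 35.9, 35.8 and 38.8 TPM in WT ZT12, 31.4, 33.3 and 36.5 TPM in TG ZT0, and 35.6, 44.4 and 36.6 TPM in WT ZT0, so all its groups overlapped. Intervals of the interaction lay within 1.5-fold for only 32 of 61 members.

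The largest departures among the members followed single libraries, not groups. In WT ZT0 replicate 2, 38 of 61 members had their highest value, and the median member stood at 1.24 times its median in the other libraries, against 1.30 times for the median of all genes. After Eef1a1 and Eif2ak3 the greatest excesses were those of Eif4ebp3 at 1.82 times, Eif4a3 at 1.81, Eef2 at 1.81, Eef1b2 at 1.74, Eif3d at 1.68 and Eif4ebp2 at 1.61. The median excess was 1.38 times in eIF3 and 1.071 times in eIF2B, and Eif4e3 was lower than elsewhere, at 0.84 times.

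TG ZT12 replicate 1 showed the opposite. It held the lowest value of 30 members, and its median member stood at 0.895 times its median in the other libraries, against 0.774 times for all genes. Pearson's r of the departures there with log2 length was -0.38 over the 61 members and -0.42 over all genes, as a description across genes of 1 library. The 15 members of 3000 bases or more had a median log2 departure of -0.41, and the 16 under 1500 bases one of -0.001. In TG ZT0 replicate 3 the same medians were -0.28 and -0.02, and in TG ZT12 replicate 2, with r = 0.57, they were 0.18 and -0.03. Over the members r was also -0.38 in WT ZT12 replicate 3 and -0.35 in WT ZT0 replicate 3, but there the long members had a median departure of only -0.06 each. Eif4g1, Eif4g3, Eef2k and Eif4b are among the long members, and Eif4ebp2, with a length of 1781 bases in the deposited table, is not, though it fell furthest.

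**Figure D4:**
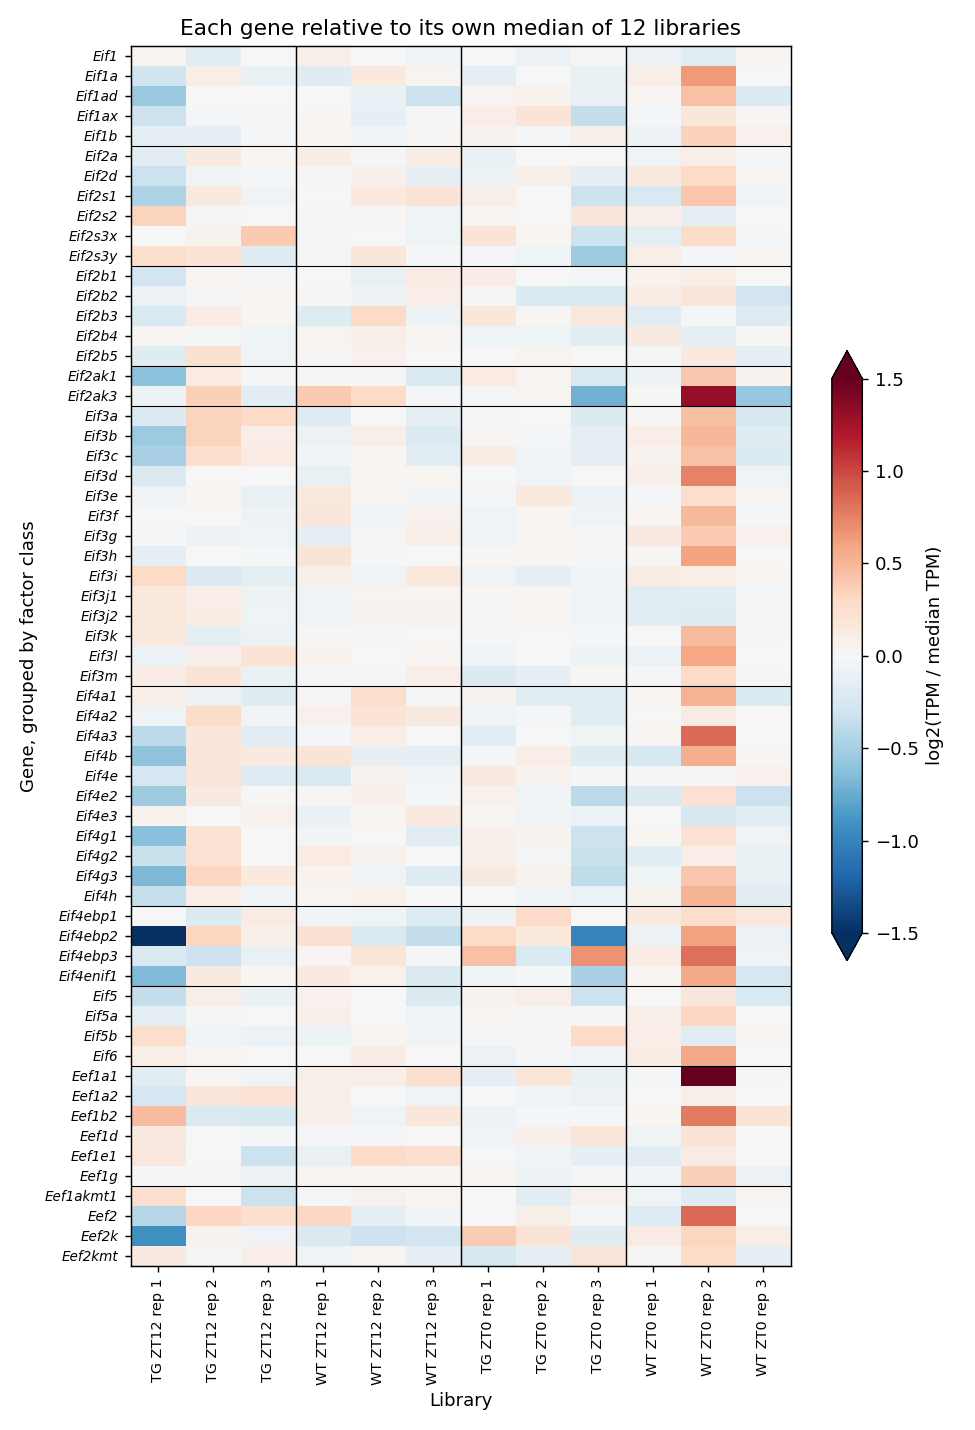
Log2 ratio of each gene to its own median of 12 libraries, genes in rows by class and libraries in columns by group, with the colour scale ending at 1.5 in either direction. WT ZT0 replicate 2 is mostly red, with 38 of 61 genes highest there, and TG ZT12 replicate 1 holds the lowest value of 30 genes.

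**Figure D5:**
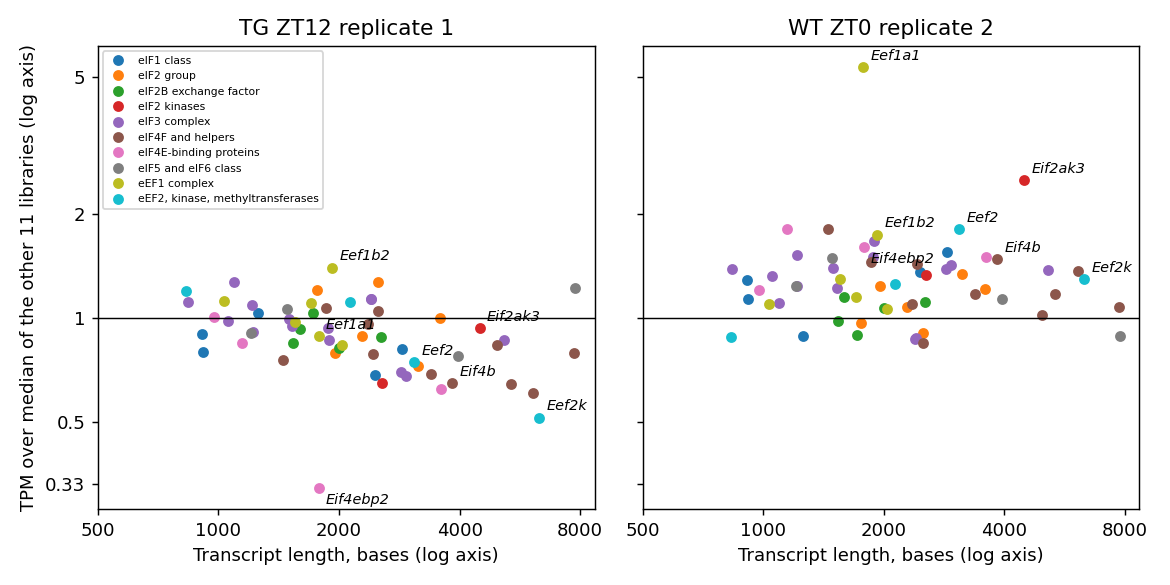
Ratio of each gene's TPM in 1 library to the median of the other 11, against transcript length in bases, both on log axes, coloured by class. In TG ZT12 replicate 1 long genes lie lower (r = -0.38), with Eif4ebp2 at 0.32 times, and in WT ZT0 replicate 2 most genes lie above 1, with Eef1a1 at 5.36 times.

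Taken over all pairs, members varied together less once these libraries were left out. Over 12 libraries the median Pearson correlation of log2 levels among the 1830 pairs of members was 0.34, and over 10 libraries without the 2 that stood apart it was 0.08. Within the eIF4F class it was 0.40 over 10 libraries, against 0.50 over 12, and within eIF3 0.01, against 0.43. Eif4ebp2 went most closely with Eif4g3 (r = 0.97 over 12 libraries and 0.92 over 10). These values come from the same libraries and describe these samples only. Correlations over all genes were not computed, and the part of depth and of transcript length was not tested.

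Genes that act on the factors were examined as lists. Of the mTORC1 arm 22 of 26 genes were tested, of cap-binding control and the poly(A) tail 17 of 17, of termination and recycling 8 of 9, of the eIF2 phosphatase and stress output 7 of 8, and of elongation partners 10 of 10. Between TG and WT 0 genes of any list were called in either direction, at ZT0, at ZT12 or over both. With time over both genotypes 1 of the 64 list genes was called (1.56%), beside 1.02% of all genes. It was Ddit3 of the stress list, with 0 in the other 4 lists. Ddit3 (CHOP), a transcription factor made when eIF2 is phosphorylated, had 13.1, 10.3 and 10.9 TPM in TG ZT12, 13.4, 15.03 and 10.3 TPM in WT ZT12, 21.6, 23.1 and 20.1 TPM in TG ZT0, and 23.1, 20.6 and 16.02 TPM in WT ZT0. Every ZT12 library was below every ZT0 library, and Ddit3 fell by 0.73 on the log2 scale (SE 0.12, limma adjusted p = 0.00751), and by 0.76 without the 2 libraries that stood apart. Without those libraries 7 of the 64 list genes were called (10.9%), beside 4.46% of all genes. They were Ddit3, lower, and Flcn, Ppp1r15a, Rps6ka3, Pabpc1, Dap and Hspa8, all higher at ZT12. After median-of-ratios scaling 4 of 64 were called (6.25%), beside 2.25% of all genes: Ddit3 and Mknk1, lower, and Flcn and Ppp1r15a, higher. The lists were written with earlier results known, and these 2 settings were chosen for them after seeing the data. The shares are therefore descriptions only.

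The transcription factor directly upstream, Atf4, had a log2 fold change of 0.04 (SE 0.06) over the same contrast. Ppp1r15a, which directs dephosphorylation of eIF2, had one of 0.32 (SE 0.11, limma adjusted p = 0.375). In the mTORC1 arm Flcn, a regulator of its lysosomal activation, had 0.44 (SE 0.13, limma adjusted p = 0.213), or 0.62 (adjusted p = 0.00274) without the 2 libraries that stood apart. Ddit4, an inhibitor, had -0.63 (SE 0.25, adjusted p = 0.525). Mknk1, a kinase of eIF4E, had -0.31 (SE 0.12, limma adjusted p = 0.445). Its relative Mknk2, at 62.1 to 126 TPM against 5.88 to 13.9 TPM for Mknk1, had -0.13 (SE 0.13, limma adjusted p = 0.988). With those libraries left out Ddit4 had -0.31 and Mknk1 -0.15. The medians over time were -0.09 in the mTORC1 arm, where 19 of 22 genes were below 0, and 0.03 in the stress list, beside -0.03 over all genes, of which 59.4% were below 0. Leaving out the same libraries, 5 of 22 genes of the mTORC1 arm were below 0, with a median of 0.08, beside 25.5% and 0.09 over all genes. After scaling 16 of 22 were below 0, with a median of -0.06, beside 50.2% of all genes.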

How the data were processed

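Poly(A) RNA of gastrocnemius was sequenced in 12 libraries. The sources list bcl2fastq, STAR, HOMER 4.11.1, DESeq2 and build mm10, per the submitters' processing notes. The deposited TPM table gives 1 value a gene and library, per the file headers. The authors' tables for each time hold log2 values under columns headed FPKM, log2 fold changes and p-values from HOMER's getDiffExpression.pl after counting reads in exons, per the file headers. How genes were chosen for the TPM table is not given in the sources used here.

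Log2(TPM + 1) of genes with at least 1 TPM in 3 libraries (10415 genes) was fitted with limma 3.58.1 (trend, R 4.3.3), with 4 group means for comparisons within a time, a genotype or the interaction, and an additive model for those over both. P-values were adjusted by Benjamini-Hochberg over all tested genes, and 95% intervals come from the same fit. Reads were recovered from TPM and transcript length, and limma-voom on them is an alternative. Python 3.11.15 served for the remaining steps, and the limma script was checked on simulated data. The group of genes was proposed, and the lists were written, with earlier results of these data known, although the rule itself picks members by symbol. Named genes are any called members, the 3 with the smallest p in each comparison and a fixed set of core factors.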

Additional observations from a re-analysis of the deposited data

How the results depend on the processing

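Under 21 settings (median-of-ratios scaling, 2 filters on low values, pseudocounts of 0.1 and 5, a replicate block, limma-voom on recovered reads, leaving out each library, leaving out WT ZT0 replicate 2 and TG ZT12 replicate 1 together, and the compared groups alone), 0 members were called in every one of 144 repeats, and 475 of 478 repeats for single members kept direction and call. The exceptions were Eef1a1 over time in WT, which was 0.165 without both libraries and ran from -1.04 to 0.165 when single libraries were left out (0.165 without WT ZT0 replicate 2), and Eif4ebp1 over time in TG, which ran from -0.16 to 0.014 (without TG ZT0 replicate 2). The median log2 fold change of the members in TG over WT at ZT0, -0.12, was -0.0102 after median-of-ratios scaling and 0.00556 without both libraries, and ran from -0.18 to 0.00556 when single libraries were left out. That of ZT12 over ZT0 in WT, -0.09, was 0.0229 without both libraries and ran from -0.17 to 0.0229 when single libraries were left out. The cause was not tested. With the replicate block 0 members were called, with a smallest adjusted p of 0.333 in limma (Eef2k, both genotypes), and no call on a member changed. Same-numbered libraries had a median correlation of 0.06 over 18 pairs, and own-number libraries were the closest for 5 of 12, so numbers were not taken to pair samples. Calls over all genes with time ran from 4 to 72 in WT, from 3 to 71 in TG and from 70 to 464 over both genotypes. The counts of non-overlapping members and the pathway lists under scaling and without both libraries were chosen after seeing the data. Low members such as Eif4ebp3, at 26 to 62 reads, are limited by depth.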

Other observations

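The authors' deposited tables, whose log2 fold changes are drawn towards 0, list no member near a call. At ZT0 the smallest p among the members is that of Eef1b2, with a log2 fold change of -0.12 and an adjusted p of 0.999912 in the authors' deposited table. At ZT12 it is that of Eif3a, with 0.08 and an adjusted p of 0.999874 in the authors' deposited table.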
